A study of Mus musculus with 6 samples.

Results

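The miR-23, miR-24 and miR-27 microRNAs (miRNAs) were followed across embryoid bodies (EBs) and embryonic stem cells (mESCs) of a C57 mouse line on single-colour Agilent miRNA arrays. All array entries named miR-23a, miR-23b, miR-24, miR-27a or miR-27b were taken, with or without a copy number and for either arm of the hairpin. This rule gave 11 of the 1247 mouse miRNAs on the array. The rule itself used names alone and no measured value, although the members were chosen with earlier results of these data known.

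There were 3 groups, each with 2 arrays. Hypoxic EBs and normoxic EBs had formed in hanging drops, with neither LIF nor feeder cells, and were kept for 16 h under hypoxia or normoxia. The mESCs were kept undifferentiated for 16 h under normoxia, with LIF, on feeder layers of mouse embryonic fibroblasts treated with mitomycin C. All cells carried the same C57 background, no transgene is named in the labels, and nothing in them says whether the arrays of a group came from separate cultures, so that a p-value here covers the spread of the arrays alone, and that spread may be technical.

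A miRNA is cut from a hairpin whose 2 arms can each give a mature strand, called 5p and 3p. Bases 2 to 8 of the mature strand, the seed, pair with target messenger RNAs and largely set which of them are repressed. miR-23, miR-27 and miR-24 lie side by side in paired clusters that arose by duplication in vertebrates, and each cluster is read as a single primary transcript. In mouse muscle, miR-27 is known to act on Pax3, a regulator of muscle progenitors, miR-24 to favour myoblast differentiation, and miR-23a to repress the ubiquitin ligases of muscle atrophy. In human cells, miR-23a and miR-23b are known to be repressed by Myc and to act on mitochondrial glutaminase.

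The hairpins are shown first because the strands shared between the clusters set what the array can tell apart. In RefSeq's annotation of the mouse build GRCm38.p6, Mir23a, Mir27a and Mir24-2 lie on the plus strand within chr8:84208518-84208921, a span of 404 bases inside no protein-coding gene, with Zswim4 the next protein-coding gene after 2021 bases. Mir23b, Mir27b and Mir24-1 lie on the plus strand within chr13:63300484-63301275, a span of 792 bases inside Aopep, which encodes an aminopeptidase, with Fancc, a gene of the Fanconi anaemia DNA repair pathway, 59 bases further on. Mir24-2 and Mir24-1 differ in sequence but give the same mature miR-24-3p, shown in capitals, so that a signal of miR-24-3p is the sum of both loci.
Mir24-2: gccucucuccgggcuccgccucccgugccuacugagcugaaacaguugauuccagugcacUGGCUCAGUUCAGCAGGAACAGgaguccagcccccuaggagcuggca
Mir24-1: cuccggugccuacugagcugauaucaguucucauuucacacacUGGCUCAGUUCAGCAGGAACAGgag

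**Figure D1:**
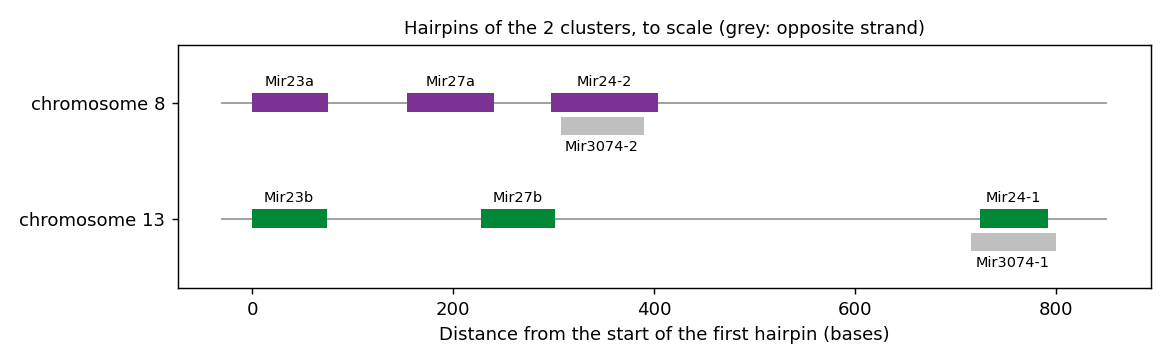
Hairpins of both clusters drawn to scale, with the distance in bases from the start of the first hairpin on the horizontal axis and a line for each chromosome. Coloured bars are the hairpins on the plus strand and grey bars those of miR-3074 on the opposite strand; the cluster on chromosome 8 spans 404 bases and that on chromosome 13 spans 792 bases.

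The mature strands that carried signal are printed below with their seeds in capitals, to show which strands share a seed and where bases differ. RefSeq held a mature sequence for 10 of the 11 entries and for 1017 of the 1247 miRNAs on the array; miR-23b-3p is named only.
miR-23a-3p: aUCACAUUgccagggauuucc
miR-27a-3p: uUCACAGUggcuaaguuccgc
miR-27b-3p: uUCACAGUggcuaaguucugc
miR-24-3p: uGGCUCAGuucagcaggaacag
The strands fell into 3 seeds, one shared by miR-27a-3p and miR-27b-3p and one each for miR-23a-3p and miR-24-3p. miR-27a-3p and miR-27b-3p were identical at 20 of 21 bases, and the difference was C19U, counted from 1 at the 5′ end with miR-27a-3p's base first. The array span given in the authors' deposited table covered bases 6 to 21 of miR-27a-3p and bases 5 to 21 of miR-27b-3p, so both spans included that base. Whether either probe also read the other strand was not tested. Another 4 miRNAs on the array had the seed of miR-24-3p (miR-5124b, miR-6369, miR-6410 and miR-6413), and none of them was detected on any array.

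The deposited values were a total signal per miRNA, an intensity, with its scanner error and a detection flag. Detection was flagged for 495 and 471 miRNAs on the arrays of hypoxic EBs, 446 and 473 on those of normoxic EBs and 408 and 415 on those of mESCs. The arrays were brought to one scale by the 75th percentile of their signals, taken over the 391 miRNAs that all 6 arrays detected. Before scaling this percentile was 219 and 175 for hypoxic EBs, 222 and 237 for normoxic EBs and 137 and 140.0 for mESCs, so the unscaled mESC arrays were dimmer. Replicate arrays correlated at 0.996 to 0.997 on the log2 scale over the 484 miRNAs detected on both arrays of any group. By the file names, the mESC arrays lay in another row of the slide than the EB arrays, and slide row and cell type cannot be told apart.

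The miRNAs miR-294-3p and miR-302b-3p, of clusters that mark pluripotent mouse cells, were detected on every array. The scaled signal of miR-302b-3p was 217.9 and 207.7 in hypoxic EBs, 291 and 258 in normoxic EBs and 821 and 801 in mESCs, and that of miR-294-3p was 5851 and 5647, 7231 and 6415, and 8182 and 7788 in the same groups. miR-210-3p, the miRNA most widely known to be induced by hypoxia, had 171 and 181.4 in hypoxic EBs, 79.3 and 73.6 in normoxic EBs and 154 and 142 in mESCs, and was 2.31-fold higher in hypoxic than in normoxic EBs (adjusted p 0.00601, limma). It also fell in normoxic EBs against mESCs, by 0.95 on the log2 scale (adjusted p 0.00121).

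Only the 3p arms of the clusters were detected. These 5 entries (mmu-miR-23a-3p, mmu-miR-27a-3p, mmu-miR-24-3p, mmu-miR-23b-3p and mmu-miR-27b-3p in the files, written here without the species prefix) were flagged as detected on all 6 arrays, and they passed the filter (detection on 2 of 2 arrays in any group) that 484 of the 1247 miRNAs passed. miR-23a-5p, miR-27a-5p, miR-24-2-5p, miR-23b-5p, miR-27b-5p and miR-24-1-5p, the other 6 entries, were detected on no array. The 5p arms of Mir24-2 and Mir24-1 differ between the loci and could have told them apart, but neither gave a signal. The opposite-strand hairpins Mir3074-2 and Mir3074-1 overlap Mir24-2 and Mir24-1, and miR-3074-5p is complementary to miR-24-3p over 20 bases; none of its 3 entries was detected.

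The arm mmu-miR-23a-3p had a scaled signal of 283 and 281 in hypoxic EBs, 335 and 308 in normoxic EBs and 491 and 479 in mESCs. Its neighbour on chromosome 8, mmu-miR-27a-3p, had 158 and 165 in hypoxic EBs, 187 and 175 in normoxic EBs and 305 and 311 in mESCs. Both arms stood highest on the mESC arrays and lowest on the hypoxic EB arrays, with no overlap between any pair of groups.

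The arm mmu-miR-24-3p, the strand that both loci produce, had 216 and 216 in hypoxic EBs, 224 and 210 in normoxic EBs and 283 and 283 in mESCs. Its mESC arrays stood apart, while the hypoxic EB arrays lay between the 2 normoxic ones.

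On chromosome 13 the order differed. The arm mmu-miR-23b-3p had 67.1 and 67.1 in hypoxic EBs, 84.2 and 77.8 in normoxic EBs and 77.7 and 77.4 in mESCs, and mmu-miR-27b-3p had 55.0 and 57.3 in hypoxic EBs, 72.2 and 66.6 in normoxic EBs and 70.7 and 70.1 in mESCs. For both arms the hypoxic EB arrays were the lowest. The mESC arrays lay just below both normoxic EB arrays for miR-23b-3p and between them for miR-27b-3p. Signals of different probes are not set against each other here, since each probe binds its miRNA with its own strength.

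The scanner's own error on these signals was 7.11% to 8.39% on a single array. The log2 difference between the replicate arrays of a group was 0.00155 to 0.797 times the combined scanner error of those 2 arrays, over the 5 arms in 3 groups. The widest replicate differences were those between the normoxic EB arrays.

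**Figure D2:**
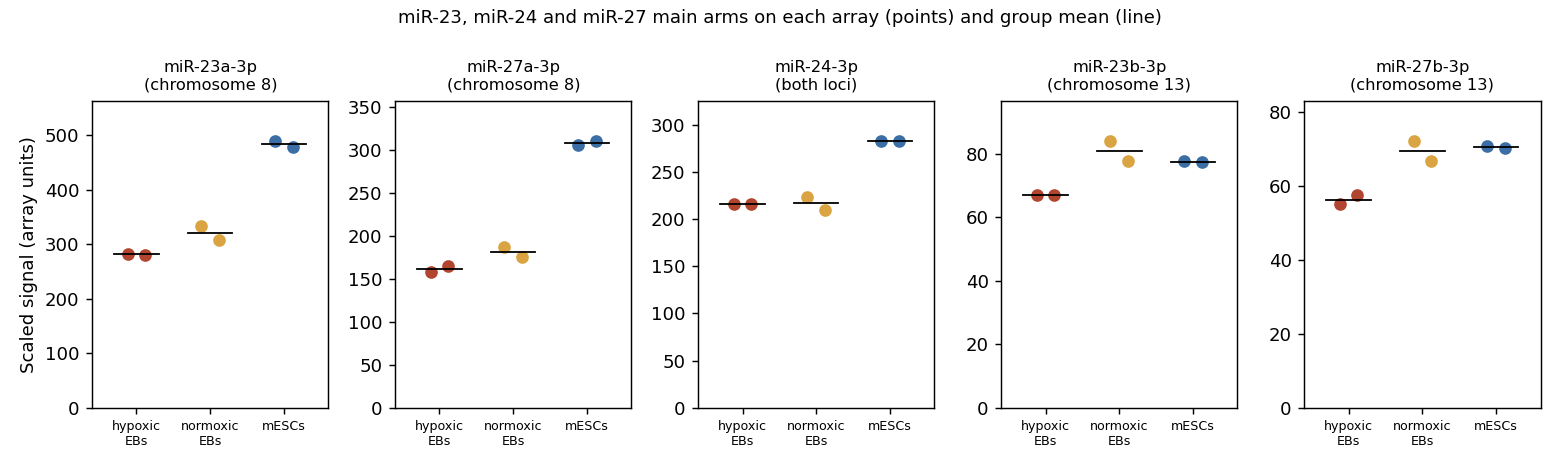
Scaled signal (array units, linear axis from 0) of each detected arm, with 1 point per array, a line at the group mean, and hypoxic EBs, normoxic EBs and mESCs from left to right; each panel has its own scale. The mESC points are highest for miR-23a-3p, miR-27a-3p and miR-24-3p, whereas for miR-23b-3p and miR-27b-3p the hypoxic EB points are lowest and the other groups lie close together.

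The comparison of normoxic EBs with mESCs asks what changed when the cells left LIF and feeders and aggregated. miR-23a-3p and miR-27a-3p of chromosome 8 fell, as did miR-24-3p, whereas the chromosome 13 arms miR-23b-3p and miR-27b-3p did not pass the test. miR-27a-3p averaged 180.8 ± 8.43 in normoxic EBs and 308 ± 3.97 in mESCs (SD, n = 2 each), a 1.70-fold lower signal (95% interval 1.53 to 1.89; log2 change -0.77, SE 0.0563; limma with Benjamini-Hochberg adjustment, adjusted p 0.00115). miR-23a-3p averaged 321 ± 19.1 in normoxic EBs and 485 ± 8.20 in mESCs, 1.51-fold lower (1.36 to 1.68; log2 change -0.60, adjusted p 0.00234). miR-24-3p averaged 217 ± 9.91 in normoxic EBs and 283 ± 0.0314 in mESCs, 1.31-fold lower (1.19 to 1.44; log2 change -0.39, adjusted p 0.00521).

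On chromosome 13, miR-23b-3p averaged 81.0 ± 4.53 in normoxic EBs and 77.6 ± 0.212 in mESCs, with a log2 change of 0.06 (95% interval -0.09 to 0.21, adjusted p 0.388). miR-27b-3p averaged 69.4 ± 3.92 in normoxic EBs and 70.4 ± 0.393 in mESCs, with a log2 change of -0.02 (-0.18 to 0.14, adjusted p 0.794). The intervals leave room for changes of up to about those bounds in either direction.

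Of the 5 arms, 3 were called lower and 0 higher, while 25.2% of the 484 tested miRNAs were called lower and 26% higher (51.2% in all). For 4 of the 5 arms there was no overlap between normoxic EB and mESC arrays, as for 79.3% of all tested miRNAs. The median log2 change was -0.39 over the 5 arms and 0.05 over all tested miRNAs. Among all tested miRNAs 9.3% fell further than miR-27a-3p, 15.9% further than miR-23a-3p and 22.1% further than miR-24-3p.

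These directions depend on scaling the arrays. With the signals as deposited, which had no scaling, the log2 change was 0.13 for miR-23a-3p and 0.34 for miR-24-3p, both turned in sign, -0.04 for miR-27a-3p and 0.79 for miR-23b-3p, while the median over all tested miRNAs moved to 0.74. Relative to the median of all tested miRNAs, miR-27a-3p lay at -0.85 to -0.67, miR-23a-3p at -0.69 to -0.47 and miR-24-3p at -0.46 to -0.31 under all 19 alternatives run. Of 248 calls over all tested miRNAs 122 were lower, against 178 higher of 285 with median scaling, 184 higher of 284 with the hur control features (spots of that name among the array's controls) and 326 higher of 337 with no scaling.

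The mESCs had been grown on fibroblast feeders, and miRNAs listed as fibroblast markers were read beside the arms. Of 5 tested, 2 fell and 2 rose in normoxic EBs against mESCs (25.2% and 26% of all tested miRNAs), with a median log2 change of -0.00. Of 13 such entries on the array, 7 were detected on at least 1 array, and their summed scaled signal was 261 and 241 in hypoxic EBs, 325 and 299 in normoxic EBs and 492 and 466 in mESCs. Most of this sum was miR-21a-5p, at 154 and 147, 201 and 179, and 415 and 393 in the same groups. miR-199a-5p, miR-199b-5p, miR-143-3p, miR-100-5p, miR-99a-5p and miR-152-3p were detected on no array. miR-199a-3p was detected on the EB arrays and on neither mESC array, and miR-214-3p and miR-145a-5p were each detected on a single hypoxic EB array. The part of feeder cells in the fall of the chromosome 8 arms was not tested. In bulk RNA, fewer cells of a type and less of a miRNA per cell cannot be told apart.

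The comparison of hypoxic with normoxic EBs asks what low oxygen changed in EBs of the same age. All 5 estimates were at or below 0, and the largest were those of the chromosome 13 arms, which had not passed the test between normoxic EBs and mESCs. miR-27b-3p averaged 56.2 ± 1.66 in hypoxic EBs and 69.4 ± 3.92 in normoxic EBs (SD, n = 2 each), 1.23-fold lower (95% interval 1.11 to 1.38; log2 change -0.30, limma adjusted p 0.0174). miR-23b-3p averaged 67.1 ± 0.0250 in hypoxic EBs and 81.0 ± 4.53 in normoxic EBs, 1.21-fold lower (1.09 to 1.34; log2 change -0.27, adjusted p 0.0184).

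miR-23a-3p averaged 282 ± 1.41 in hypoxic EBs and 321 ± 19.1 in normoxic EBs, 1.14-fold lower (1.02 to 1.27; log2 change -0.19), and was just past the threshold with an adjusted p of 0.0495. miR-27a-3p averaged 161 ± 5.02 in hypoxic EBs and 180.8 ± 8.43 in normoxic EBs, a log2 change of -0.16 (-0.31 to -0.01) that was not past it after adjustment (adjusted p 0.0638), although its arrays did not overlap. miR-24-3p averaged 216 ± 0.36 in hypoxic EBs and 217 ± 9.91 in normoxic EBs, with a log2 change of -0.00 (-0.14 to 0.13, adjusted p 0.968).

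Of the 5 arms, 3 were called lower in hypoxic EBs, while 25.2% of all tested miRNAs were called lower and 32.9% higher (58.1% in all). For 4 of the 5 arms there was no overlap between hypoxic and normoxic EB arrays, as for 84.7% of all tested miRNAs. The median log2 change was -0.19 over the arms and 0.10 over all tested miRNAs, of which 20.2% fell further than miR-27b-3p and 23.8% further than miR-23b-3p.

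These changes were small and rested on few arrays. The call of miR-23a-3p was lost when any single array was left out (adjusted p 0.0819 to 0.131) other than the second normoxic EB array, without which its adjusted p was 0.0202 and miR-27a-3p passed as well at 0.0406. The calls of miR-23b-3p and miR-27b-3p were both lost without the first hypoxic EB array (adjusted p 0.0536 for each), and that of miR-23b-3p also without the second hypoxic EB array (0.0638) or either mESC array (0.0502), which enter this comparison only through the estimate of the spread. miR-27a-3p passed under quantile normalization at -0.28 (adjusted p 0.0113), cyclic loess (0.0227), median scaling (0.0352) and the 75th percentile of all mouse miRNAs (0.0142). It passed under no other scaling, floor or filter. miR-23a-3p passed under quantile normalization (0.0422), cyclic loess (0.0226) and the 75th percentile of all mouse miRNAs (0.021). It did not pass under median scaling (adjusted p 0.0525) or with either changed floor (0.0535 and 0.0668). Nor did it with only miRNAs detected on all arrays (0.0592) or only these groups in the fit (0.0969). With the hur control features as the scale, the log2 change was 0.05 for miR-23a-3p, 0.07 for miR-27a-3p, 0.23 for miR-24-3p, -0.04 for miR-23b-3p and -0.07 for miR-27b-3p, beside a median of 0.34 over all tested miRNAs. Over all tested miRNAs the calls were 159 higher and 122 lower, against 122 higher of 268 with quantile normalization, 24 higher and 115 lower with no scaling and 231 higher and 15 lower with the hur control features.

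Hypoxic EBs against mESCs hold both differences at once, and share their arrays with the other comparisons, so this is no independent support for them. All 5 arms fell: miR-27a-3p was 1.91-fold lower in hypoxic EBs (95% interval 1.72 to 2.12; log2 change -0.93, limma adjusted p 0.000566) and miR-23a-3p 1.72-fold lower (1.54 to 1.92; log2 change -0.78, adjusted p 0.00077). miR-24-3p was 1.31-fold lower (1.19 to 1.44; adjusted p 0.00288), miR-27b-3p 1.25-fold lower (1.12 to 1.40; adjusted p 0.0079) and miR-23b-3p 1.16-fold lower (1.04 to 1.28; adjusted p 0.0246). The call of miR-23b-3p was lost without either hypoxic EB array (adjusted p 0.0699 and 0.0708) and without either mESC array (0.104 and 0.0951), as well as with median scaling (0.106), quantile normalization (0.0595) and cyclic loess (0.0608).

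In this comparison 33.7% of all tested miRNAs were called lower and 41.3% higher (75% in all), and 88% had arrays that did not overlap, as all 5 arms had. The median log2 change was -0.39 over the arms and 0.11 over all tested miRNAs, and 5.58% of all tested miRNAs fell further than miR-27a-3p. With no scaling the log2 change was 0.11 for miR-24-3p, 0.29 for miR-23b-3p and 0.17 for miR-27b-3p, all turned in sign, beside a median of 0.57 over all tested miRNAs, and miR-23a-3p, at -0.29, no longer passed (adjusted p 0.128). With the hur control features it was -0.05 for miR-24-3p (adjusted p 0.581), 0.13 for miR-23b-3p and 0.01 for miR-27b-3p, beside a median of 0.44. The calls over all tested miRNAs were 200 higher and 163 lower, against 251 and 60 with the hur control features and 251 and 19 with no scaling.

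**Figure D3:**
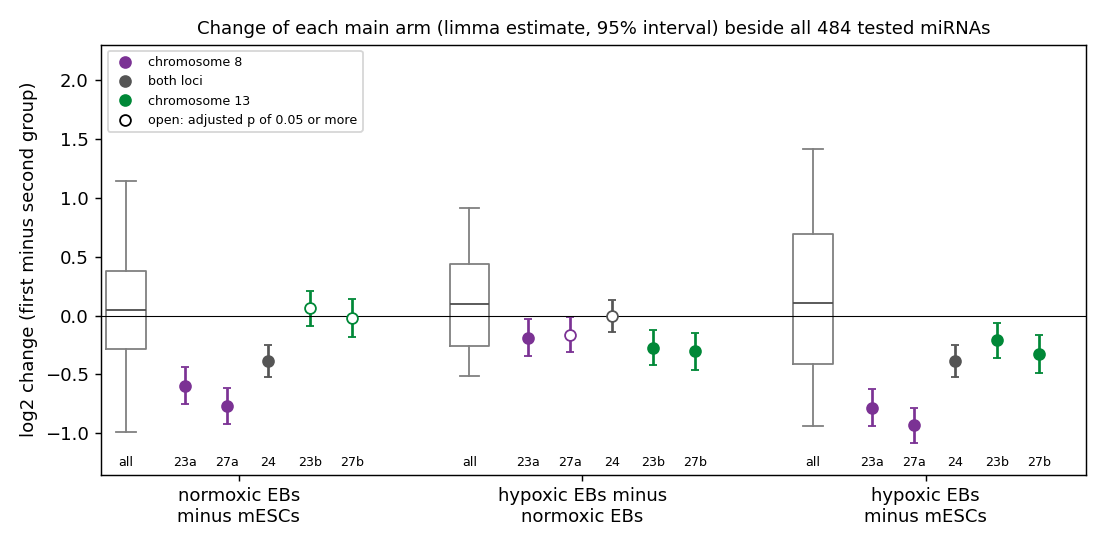
Log2 change of each detected arm (limma estimate with its 95% interval; filled where the adjusted p was below 0.05), the first group named minus the second, beside a box of all 484 tested miRNAs (quartiles, with whiskers at the 5th and 95th percentiles). The chromosome 8 arms (purple) lie lowest in both comparisons with mESCs, at -0.77 and -0.60 in normoxic EBs, and the chromosome 13 arms (green) lie lowest between hypoxic and normoxic EBs, at -0.30 and -0.27.

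The difference between loci can be read within each array, where any factor that multiplies a whole array drops out. The log2 signal of miR-23a-3p minus that of its paralogue miR-23b-3p, set relative to the mESC mean, was -0.57 and -0.58 in hypoxic EBs, -0.65 and -0.66 in normoxic EBs and 0.01 and -0.01 in mESCs. That of miR-27a-3p minus miR-27b-3p was -0.61 and -0.60 in hypoxic EBs, -0.76 and -0.74 in normoxic EBs and -0.02 and 0.02 in mESCs. All 4 EB arrays stood well below both mESC arrays for both pairs of paralogues, and the hypoxic EB arrays lay between the normoxic EB arrays and the mESC arrays. EB and mESC arrays also did not overlap for miR-23a-3p minus miR-27a-3p and miR-23b-3p minus miR-27b-3p, at smaller differences. Of single tested miRNAs, 79.3% did not overlap between normoxic EBs and mESCs, and 88% between hypoxic EBs and mESCs. How many other pairs of miRNAs separate in this way was not counted.

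Within-array differences between the miR-23 and miR-27 arms of the same locus changed less than those between paralogues. miR-23a-3p minus miR-27a-3p changed by 0.17 between normoxic EBs and mESCs and by -0.02 between hypoxic and normoxic EBs, and miR-23b-3p minus miR-27b-3p by 0.08 and 0.03. The paralogues changed by -0.66 and -0.75 between normoxic EBs and mESCs, and by 0.08 and 0.14 between hypoxic and normoxic EBs. Against miR-24-3p, the sum of both loci, miR-23a-3p changed by -0.21 and -0.18 and miR-27a-3p by -0.38 and -0.16 in these comparisons. Between hypoxic and normoxic EBs, these changes against miR-24-3p were larger in size than those between paralogues.

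Of the 15 pairs of entries set out for this reading, 6 had both entries detected on all arrays, which gave 18 tests. The two-sided exact permutation p was 0.333 in 17 of them, the smallest that 2 arrays against 2 allow, and 0.667 for miR-23a-3p minus miR-27a-3p between hypoxic and normoxic EBs, so none of these differences could pass a threshold of 0.05 (adjusted p 0.353 and 0.667). Cross-hybridisation between the near-identical paralogues was not tested.

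**Figure D4:**
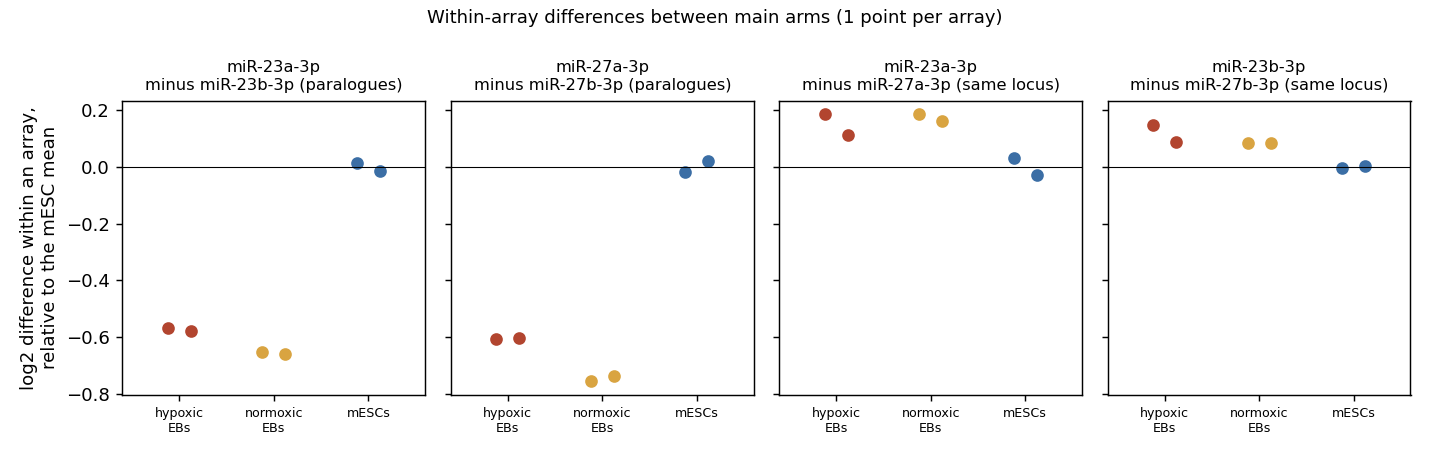
Log2 difference between arms within an array, relative to the mESC mean, with 1 point per array and hypoxic EBs, normoxic EBs and mESCs from left to right. The paralogue pairs (left panels) lie at -0.76 to -0.57 on all EB arrays, and the same-locus pairs (right panels) stay between 0.08 and 0.19 there.

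The same split appeared in the distance between profiles, taken as the Euclidean distance over the 6 arrays between log2 values centred on each arm's own mean. It was 0.200 between miR-23a-3p and miR-27a-3p and 0.128 between miR-23b-3p and miR-27b-3p, the same-locus pairs. It was 0.716 between miR-23a-3p and miR-23b-3p and 0.794 between miR-27a-3p and miR-27b-3p, and miR-27a-3p and miR-27b-3p share their seed and all but 1 base. miR-24-3p lay between them, at 0.395 from miR-23a-3p, 0.560 from miR-27a-3p, 0.451 from miR-23b-3p and 0.391 from miR-27b-3p. These distances describe the same 6 arrays that the tests used.

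Among 386 other miRNAs detected on all arrays, the 5 whose profile was nearest to the mean of the 5 arms were miR-340-5p at 0.0630, miR-200a-3p at 0.0831, miR-200b-3p at 0.101, miR-484 at 0.110 and miR-101a-3p at 0.117. That mean was highest on the mESC arrays, and the 5 were picked for closeness to it on the same arrays. Their fall in normoxic EBs against mESCs was therefore set by the selection and is no separate result. It was 0.36 for miR-340-5p and 0.29 for miR-200a-3p on the log2 scale. The mean also pooled unlike profiles, since the chromosome 8 arms lay 0.608 to 0.905 from the chromosome 13 arms. None of the 5 arms had another of the 5 among its own 5 nearest miRNAs, so the same-locus pairs were close without being closest on the array.

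The miRNAs reported in human cancer cell lines to rise in hypoxia together with miR-23, miR-24 and miR-27 gave the next comparison. The list has 10 entries on the array, of which 7 were detected and 6 tested. In hypoxic against normoxic EBs 1 of the 6, miR-210-3p, rose and 4 fell, with a median log2 change of -0.27 against 0.10 over all tested miRNAs, of which 32.9% were called higher and 25.2% lower. miR-181c-5p had 48.7 and 49.3 in hypoxic EBs and 62.5 and 61.5 in normoxic EBs, and fell by 0.34 on the log2 scale (adjusted p 0.00768). miR-26a-5p and miR-26b-5p each fell by 0.31 (adjusted p 0.0214 and 0.0234) and miR-107-3p by 0.23 (adjusted p 0.0283), while miR-103-3p, at -0.14, did not pass (adjusted p 0.152).

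In the same list 1 rose and 3 fell in normoxic EBs against mESCs (median -0.22), where 26% of all tested miRNAs were called higher and 25.2% lower. In hypoxic EBs against mESCs 1 rose and 4 fell (median -0.25), where 41.3% were called higher and 33.7% lower. The one that rose in normoxic EBs was miR-181c-5p, by 0.37. miR-26b-5p fell by 0.55 in normoxic EBs and by 0.86 in hypoxic EBs against mESCs (adjusted p 0.00508 and 0.000952).

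The list of miRNAs reported to be repressed by Myc, as miR-23 is, has 17 entries on the array, of which 14 were tested; it shares miR-26a-5p with the hypoxia list. In hypoxic against normoxic EBs 0 rose and 10 fell, with a median of -0.38 against 0.10 over all tested miRNAs, of which 25.2% were called lower. The counts of this and the other lists were read under the reported scaling alone. With the hur control features, 231 of all tested miRNAs were called higher and 15 lower in this comparison. miR-34a-5p, known to be induced by p53, had 265 and 268 in hypoxic EBs and 450 and 404 in normoxic EBs, a 1.60-fold lower signal (adjusted p 0.00705). miR-22-3p fell by 0.47 (adjusted p 0.00694) and miR-29a-3p fell by 0.42 (adjusted p 0.0133), with miR-15a-5p at a log2 change of -0.42 (adjusted p 0.00908).

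Between normoxic EBs and mESCs the Myc list was divided, with 3 of 14 rising and 4 falling and a median of 0.02; 26% of all tested miRNAs were called higher and 25.2% lower. miR-150-5p had 25.4 and 23.5 in normoxic EBs and 8.75 and 9.10 in mESCs, 2.74-fold higher (adjusted p 0.000348), and let-7a-5p was 1.56-fold higher (adjusted p 0.0117). let-7f-5p was detected on all 4 EB arrays and on neither mESC array (adjusted p 0.0011), so no fold is given. miR-29a-3p fell by 0.42 and miR-26a-5p fell by 0.31 on the log2 scale (adjusted p 0.0105 and 0.0206). In hypoxic EBs against mESCs 3 rose and 10 fell, with a median of -0.45, where 41.3% of all tested miRNAs were called higher and 33.7% lower.

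Other marker lists give the setting of these values. All 7 tested miRNAs listed for pluripotent cells fell in hypoxic against normoxic EBs and against mESCs, and 4 of 7 fell in normoxic EBs against mESCs, with medians of -0.34, -1.93 and -1.57. Over all tested miRNAs 25.2%, 33.7% and 25.2% were called lower in these comparisons, and 32.9%, 41.3% and 26% higher. miR-302b-3p was 2.96-fold lower in normoxic EBs than in mESCs (adjusted p 0.000466) and 1.29-fold lower in hypoxic than in normoxic EBs (adjusted p 0.0191). Of 5 tested fibroblast-listed miRNAs 4 fell and 0 rose in hypoxic against normoxic EBs, and 3 fell and 2 rose in hypoxic EBs against mESCs, beside the same shares of all tested miRNAs. Among them, miR-21a-5p was 2.13-fold lower and miR-125b-5p 2.75-fold higher in normoxic EBs than in mESCs (adjusted p 0.0011 and 0.000819). The endothelial miR-126-3p fell in normoxic and hypoxic EBs against mESCs, by 0.35 and 0.50 (adjusted p 0.0341 and 0.00794). Of the 7 muscle miRNAs on the array, miR-206-3p was detected on 1 hypoxic EB array and 1 mESC array, and the other 6 on none.

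**Figure D5:**
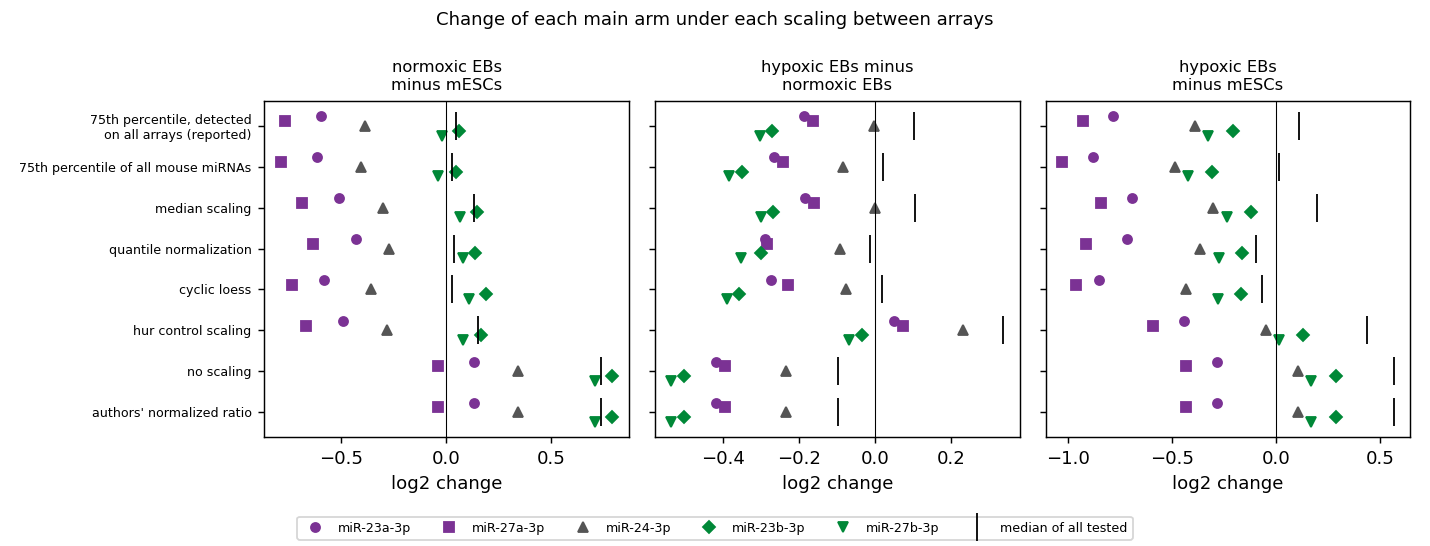
Log2 change of each detected arm under each scaling between arrays (rows; markers are arms, coloured by locus), with a bar at the median of all tested miRNAs. That median ran from 0.03 to 0.74 between normoxic EBs and mESCs. The values move largely together with it, except under quantile normalization and cyclic loess. There miR-23b-3p moves from 0.06 to 0.14 and 0.19 between normoxic EBs and mESCs, while the median goes from 0.05 to 0.04 and 0.03. The chromosome 8 arms stay to the left of the chromosome 13 arms in both comparisons with mESCs.

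The plot of changes by scaling shows which statements depend on the scale. Under all 8 scalings it shows, miR-27a-3p and miR-23a-3p lay below miR-24-3p, and miR-24-3p below miR-23b-3p and miR-27b-3p, in normoxic EBs against mESCs. Against the median of all tested miRNAs, the changes between hypoxic and normoxic EBs were -0.49 to -0.30 for miR-27b-3p, -0.46 to -0.27 for miR-23b-3p, -0.38 to -0.19 for miR-23a-3p, -0.34 to -0.16 for miR-27a-3p and -0.18 to -0.00 for miR-24-3p under the 19 alternatives run. In the authors' deposited table, which divides each signal by a control value per miRNA and scales no array, miR-27a-3p stands at 0.829 and 0.691 in hypoxic EBs, 0.996 and 0.994 in normoxic EBs and 1.00 and 1.04 in mESCs, and miR-27b-3p at 1.08 and 0.900, 1.44 and 1.42, and 0.871 and 0.883 in the same groups.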

How the data were processed

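Trizol total RNA was labelled with Cy3; the labels' protocols name a kit for cRNA, and no source used here gives the scanner software or its detection rule. The deposited scanner files hold, per the file headers, an intensity for 1268 features (21 controls), its error and a detection flag, a value of another kind; undetected miRNAs are deposited at 0.1. The authors' table gives a deposited ratio to a control value, unscaled between arrays; 6 of its columns, for 2 arrays of no listed sample, were not used. After division by the percentile described above and multiplication by 188.252, signals were floored at 2.91 and taken to log2. Group means came from limma 3.58.1 (functions lmFit, eBayes; R 4.3.3; residual df 3, prior df 1.43) over the 484 tested miRNAs, with Benjamini-Hochberg adjustment within a comparison and 0.05 as the limit. The fit was tested on simulated data with the same noise for every miRNA and planted changes larger than that of any arm. That test does not cover changes as small as those of the arms. The number of arrays, 2 a group, limits the precision. Named miRNAs were the family's entries, the 5 nearest profiles, up to 4 called members per list and comparison by size (part of them printed), and miR-210-3p, miR-294-3p and miR-302b-3p as label checks; miR-103-3p and undetected or single-array markers were added after their values were seen. Members and lists were chosen with earlier results of these data known. Alternatives were other scalings, floors, filters and samples in the fit, a replicate block, and leaving out each array. Sequences and coordinates are RefSeq's (GRCm38.p6). Figures were made with Python 3.11.15 and matplotlib 3.10.9.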

Additional observations from a re-analysis of the deposited data

How the results depend on the processing

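With a floor 4 times as high the calls over all tested miRNAs between normoxic EBs and mESCs numbered 154, and with no detection filter they numbered 94, 20 and 231 in normoxic EBs against mESCs, hypoxic against normoxic EBs and hypoxic EBs against mESCs, the fit then including miRNAs detected nowhere. With no scaling, or with the authors' ratio, there were 139 between hypoxic and normoxic EBs. Of the 5 arms, no scaling and the authors' ratio each called 2 between normoxic EBs and mESCs, both higher, and 1 between hypoxic EBs and mESCs; the hur control features called 0 between hypoxic and normoxic EBs and 2 between hypoxic EBs and mESCs; and between hypoxic and normoxic EBs no filter called 0 and a fit of only those groups 1. Leaving out each array in turn gave 142 to 258, 160 to 264 and 283 to 355 calls over all tested miRNAs in the 3 comparisons, and 3 to 3, 0 to 4 and 4 to 5 of the arms. Over all tested miRNAs the count moved by over 1.5 times without the first mESC array (142 between normoxic EBs and mESCs), and between hypoxic and normoxic EBs without the first normoxic EB array (160) or the second hypoxic EB array (173); the cause was not tested.

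Changes that turned in sign were, between normoxic EBs and mESCs, miR-23a-3p (0.13) and miR-24-3p (0.34) with no scaling and with the authors' ratio, and miR-27b-3p with these (0.71), median scaling (0.0632), quantile normalization (0.0796), cyclic loess (0.11) and the hur control features (0.0815), and -0.0798 to 0.0356 on leaving out each array. Between hypoxic and normoxic EBs they were miR-23a-3p (0.0482), miR-27a-3p (0.0728) and miR-24-3p (0.23) with the hur control features, miR-24-3p on leaving out arrays (-0.0505 to 0.0427), and the within-array difference of miR-23a-3p and miR-27a-3p (-0.0614 to 0.0123). Between hypoxic EBs and mESCs they were miR-24-3p (0.11), miR-23b-3p (0.29) and miR-27b-3p (0.17) with no scaling and the authors' ratio, and miR-23b-3p (0.13) and miR-27b-3p (0.0130) with the hur control features. The cause of these turns was not tested. Between normoxic EBs and mESCs, the median of all tested miRNAs was 0.05 as reported. It was 0.04 with quantile normalization and 0.03 with cyclic loess, where miR-27b-3p turned upward. miR-27a-3p kept its direction under 19 of 19 alternatives in both comparisons with mESCs, and passed in 17 and 19 of them.

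Equal replicate numbers did not deviate together (correlations of -0.02, 0.06 and 0.02), and the labels do not say what they share. With the replicate number as a block 242, 263 and 357 miRNAs were called, and the call of miR-23a-3p between hypoxic and normoxic EBs was lost (adjusted p 0.0538), as no call of another arm was.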
